A study of Sus scrofa with 32 samples.

Results

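MEF2A, MEF2C and MEF2D, 3 genes of the MEF2 (myocyte enhancer factor 2) family, were examined among the 19550 protein-coding genes on placed chromosomes of the pig build Sscrofa11.1. They were taken by name, and every peak of the 24 deposited peak lists that overlapped a gene's span extended by 5 kb on each side was assigned to that gene. The extended spans held 158 such peaks, 51 of H3K4me3, 107 of H3K27ac and 0 of H3K27me3. Bases within 5 kb of either annotated end of a gene (its ends) were kept apart from the bases deeper in the gene (its interior). The gene table gave no strand, so the end that holds the start of transcription was not identified, and positions are given as kb from the end with the lower coordinate. MEF2A (gene 100037273) lies on chromosome 1 at 138398270 to 138508639, MEF2C (gene 733590) on chromosome 2 at 96122407 to 96296927, and MEF2D (gene 100156714) on chromosome 4 at 93581563 to 93616980. Their spans are 110.4 kb, 174.5 kb and 35.42 kb, with 2, 49 and 6 RefSeq transcripts.

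MEF2 proteins bind A/T-rich DNA sites through a MADS-box domain and, in skeletal muscle, act together with MyoD-family bHLH factors on genes of the contractile apparatus. They call in acetyltransferases such as p300 and CBP where genes are switched on, and class IIa histone deacetylases where genes are held off; calcium-dependent kinases that send those deacetylases out of the nucleus release the block. In mouse muscle, Mef2c is known for its induction when myoblasts differentiate, and the gene has alternative promoters, whereas Mef2a and Mef2d are expressed in many tissues.

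The measurements were CUT&Tag libraries, in which a transposase tethered to an antibody tags the DNA beside a histone mark, made from porcine muscle satellite cells, the resident stem cells of muscle. H3K4me3 is found at active promoters, H3K27ac at active promoters and enhancers, and H3K27me3 at genes kept silent by Polycomb proteins. There were 8 libraries per mark, from 4 conditions with 2 libraries each, and 8 IgG samples were not analysed here. The CBP group at 0 h (proliferation) had received SGC-CBP30, a small molecule that occupies the acetyl-lysine binding bromodomains of p300 and CBP, for 48 h, and the WT group at 0 h is its control. The CBP group at 60 h had received the compound through 60 h of differentiation, and the WT group at 60 h is its control. The dose is labelled 5 in uM/ml, a unit whose meaning is not settled by the labels, and no vehicle is named for WT. The labels also call the cells C3H kept in RPMI medium and tag the 60 h samples as proliferating. The titles, organism and cell type fields were followed instead.

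The H3K4me3 lists held 14898 to 17364 peaks, the H3K27ac lists 8969 to 23437 and the H3K27me3 lists 1338 to 19317. The number of reads behind each list was not known. Of 6 satellite cell and myoblast markers, 5 had H3K4me3 at a gene end in both CBP libraries at 0 h and 6 in both libraries of every other group. Of 5 measured markers of differentiating myocytes, 4 had it in CBP at 60 h, 5 in WT at 60 h and 0 at 0 h. Of 4 adipocyte markers, 2 (PLIN1 and CIDEC) had it in both CBP libraries at 60 h and 0 in both libraries of any other group, although CIDEC had it in 1 WT library at 60 h. Of 5 fibroblast markers 3 had it in every group, and of 4 endothelial markers 0 had it in any. Of 4 blood cell markers 1 had it in each 0 h group and 2 in each 60 h group; of 4 pericyte and smooth muscle markers 2, and of 3 Schwann cell markers 1, had it in every group. All these counts are of markers with H3K4me3 in both libraries of a group. The fibroblast marker DCN had it in 1 CBP library at 60 h, and the blood cell marker SPI1 in 1 WT library at 0 h. The part of these marker differences in the results for the MEF2 genes was not tested. Each library came from a population of cells, so fewer cells with a mark and less of the mark per cell cannot be told apart. Nothing states that replicates were separate cultures, so p values measure the spread between libraries, which may be technical.

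Values are the length of DNA under peaks, in kb, and errors are SD over n = 2 libraries. Gene lengths were compared by limma on log2(bp + 500) over all genes that reached 200 bp in 2 or more of the 8 libraries of a mark, and a gene was called at a Benjamini-Hochberg adjusted p below 0.05. Where a group had no listed base it added no spread, and the size of the log2 change follows from the 500 bp added; such p values rest on the variance limma shares between genes, and an exact permutation of 2 against 2 libraries cannot give a p below 0.33. For such a gene the lengths and the adjusted p are given, with no fold. A gene listed in the WT 60 h libraries alone passed the filter through them and had to differ there, so its p adds nothing to its lengths. The same holds for a gene listed in any other group alone. A gene with 0 kb in all 0 h libraries passed through 60 h libraries and could not fall over time in WT. Counts of genes higher at 60 h include such genes.

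MEF2C, known in mouse muscle for its induction when myoblasts differentiate, carried H3K4me3 within 5 kb of its ends in the WT libraries at 60 h and in no other library. At its ends both CBP libraries at 60 h had 0 kb, whereas the WT libraries at 60 h had 4.32 kb and 3.49 kb, all at the high-coordinate end. Both CBP and both WT libraries at 0 h had 0 kb. The 2 groups at 60 h did not overlap. The adjusted p was 5.29e-05 for CBP against WT at 60 h and 1.14e-05 for WT at 60 h against WT at 0 h, but passing the filter through the WT 60 h libraries alone had fixed this outcome. These bases formed 3 regions, at 170.73 to 173.65 kb, 174.10 to 174.71 kb and 174.94 to 175.86 kb, each present in both WT libraries at 60 h and in none of the other 6. The lncRNA LOC102159394 starts at 158.83 kb, overlaps the last 15.69 kb of the annotated gene and runs on beyond it. The first region thus lies in both genes. The second lies in the lncRNA and runs past the end of MEF2C. The third lies in the lncRNA alone, outside MEF2C.

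The interior of MEF2C held H3K4me3 in every library, in a region at 149.96 to 155.51 kb. A further interior region at 159.78 to 160.44 kb, which lies in the lncRNA too, was present in both libraries of CBP and of WT at 60 h and in none at 0 h. Together the interior regions covered 5.00 kb and 4.72 kb in CBP at 60 h, against 5.36 kb and 5.45 kb in WT at 60 h. They covered 1.98 kb and 1.99 kb in CBP at 0 h, against 2.18 kb and 2.90 kb in WT at 0 h. Every library of a 60 h group was higher than every 0 h library, and within each time the CBP libraries lay below the WT libraries. In WT the interior rose to 5.41 ± 0.0651 kb at 60 h, against 2.54 ± 0.513 kb at 0 h (log2 0.97, SE 0.112, adjusted p = 0.00124). The CBP change did not pass the test at 60 h (log2 -0.14, adjusted p = 0.408) or at 0 h (log2 -0.28, adjusted p = 0.110), and that at 0 h turned to 0.0568 under quantile scaling. The first region alone covered 4497 bp and 4404 bp in CBP at 60 h, against 4882 bp and 5134 bp in WT at 60 h. Thus the lists of CBP at 60 h held H3K4me3 over the interior of MEF2C but none at its high-coordinate end.

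**Figure D1:**
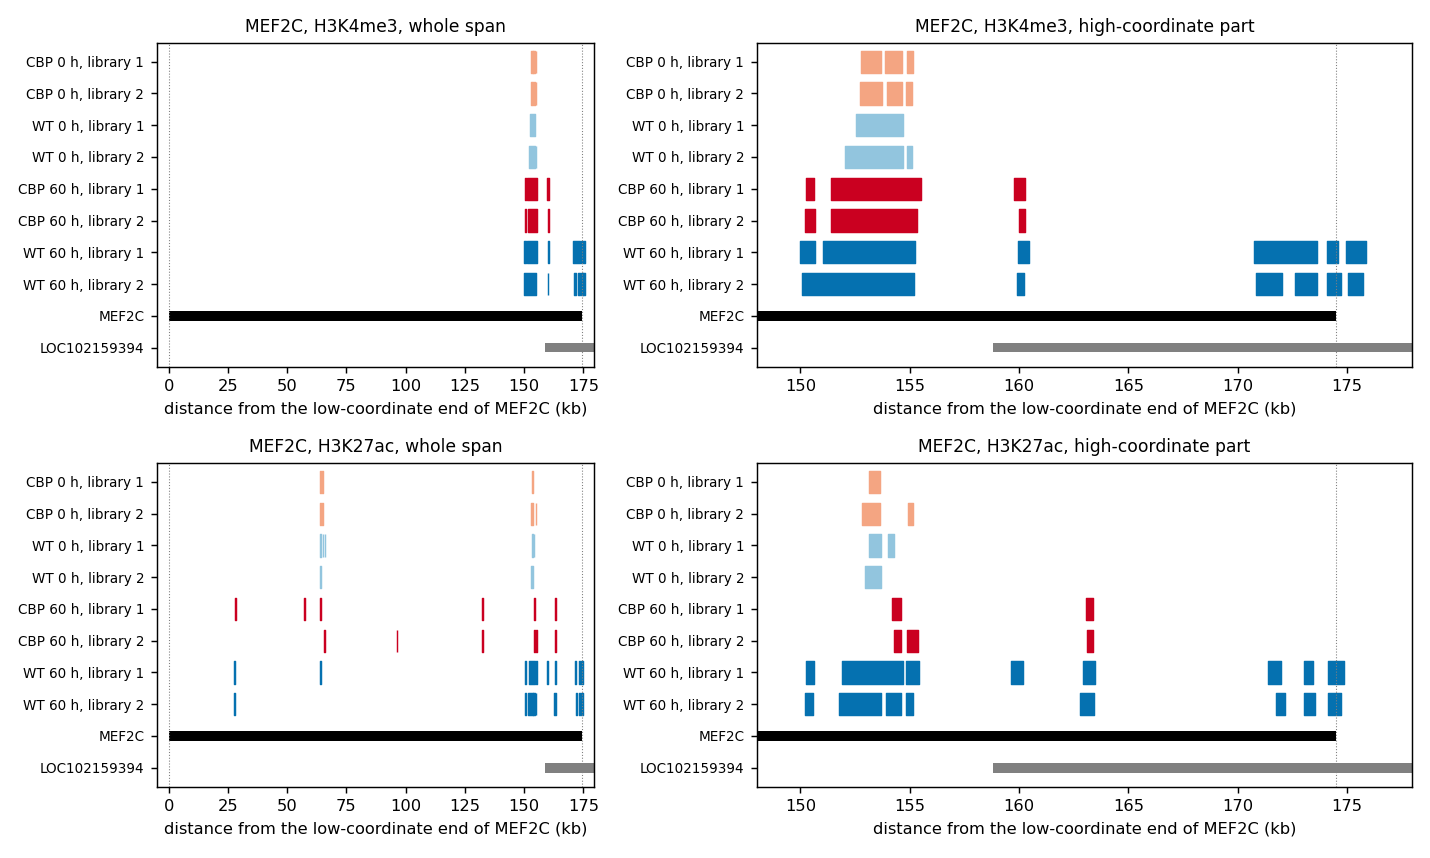
H3K4me3 and H3K27ac peaks of each library over MEF2C, drawn to scale along the gene in kb from the end with the lower coordinate, one row per library and CBP above WT at each time. The interior block near 150 to 155 kb appears in all H3K4me3 rows, and the blocks from 170.73 to 175.86 kb appear in the WT rows at 60 h.

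H3K27ac at the ends of MEF2C followed the same layout of libraries. It was 0 kb in both CBP libraries at 60 h, against 1.73 kb and 1.48 kb in WT at 60 h (adjusted p = 6.39e-05), and 0 kb in all 4 libraries at 0 h (adjusted p = 5.39e-05 for WT at 60 h against WT at 0 h), again with the filter passed through the WT 60 h libraries alone. The acetylated bases lay at 171.38 to 172.15 kb, 173.05 to 173.54 kb and 174.12 to 174.89 kb, each in both WT libraries at 60 h and in no other. When every H3K27ac list was reduced to the same number of its most significant peaks, the ends of MEF2C no longer had enough bases to be tested.

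In the interior, MEF2C had 2.22 kb and 2.24 kb of H3K27ac in CBP at 60 h, against 5.45 kb and 4.27 kb in WT at 60 h. At 0 h it had 1.45 kb and 1.95 kb in CBP, against 1.92 kb and 1.03 kb in WT. The groups at 60 h did not overlap, and those at 0 h did. H3K27ac fell by 0.96 on the log2 scale in CBP at 60 h (SE 0.261, adjusted p = 0.0363) and rose by 1.47 in WT at 60 h relative to 0 h (SE 0.261, adjusted p = 0.00578). The CBP call was lost under quantile scaling (log2 -0.38, adjusted p = 0.389) and without any single library of CBP 0 h, CBP 60 h or WT 60 h (adjusted p 0.0559 to 0.178). The differentiation call was lost with an equal number of peaks per list (adjusted p = 0.105) and with peaks of a -log10 q of at least 5 (adjusted p = 0.0662).

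The 16 merged H3K27ac regions of MEF2C differed in where they were found. The region at 151.75 to 154.67 kb, under the constant H3K4me3, was present in all 8 libraries; its peaks covered 406 bp and 328 bp in CBP at 60 h, whereas WT at 60 h had a peak of 2782 bp in replicate 1 and peaks of 1925 bp and 711 bp in replicate 2. Regions at 27.49 to 27.79 kb and 150.22 to 150.60 kb were present in both WT libraries at 60 h and in none of the other 6. A region at 132.34 to 132.82 kb showed the opposite layout, in both CBP libraries at 60 h and in no other. A region at 162.80 to 163.47 kb was in both libraries of CBP and of WT at 60 h, and one at 63.68 to 64.19 kb was in both libraries of each group at 0 h and in 1 library of each at 60 h.

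MEF2D, a member expressed in many tissues in mouse, carried H3K4me3 at its low-coordinate end in all 8 libraries. At its ends it had 5.22 kb and 5.08 kb in CBP at 60 h, against 6.30 kb and 5.63 kb in WT at 60 h. It had 2.81 kb and 2.85 kb in CBP at 0 h, against 3.14 kb and 2.67 kb in WT at 0 h. The 60 h libraries were all above the 0 h libraries; CBP lay below WT at 60 h, and the groups overlapped at 0 h. MEF2D rose in WT to 5.97 ± 0.477 kb at 60 h, against 2.90 ± 0.337 kb at 0 h (log2 0.93, SE 0.0795, adjusted p = 0.000324). The CBP change did not pass at 60 h (log2 -0.19, SE 0.0795, adjusted p = 0.165), where its sign turned with stricter peaks (log2 0.12) and with equal numbers of peaks (log2 0.0489). At 0 h it did not pass either (log2 -0.03, adjusted p = 0.832) and was 0.20 under quantile scaling.

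The constant part was 1 region at -1.0 to 3.47 kb. Its main peak was 4224 bp and 4136 bp long in CBP at 60 h, against 4365 bp and 4464 bp in WT at 60 h, and 1956 bp and 1966 bp in CBP at 0 h, against 2047 bp and 2024 bp in WT at 0 h. The peak was thus longer at 60 h than at 0 h in CBP cells as well as in WT cells. A region at -4.66 to -3.58 kb was present in both libraries of CBP and of WT at 60 h and in none at 0 h. A region at 4.0 to 4.87 kb, still within 5 kb of the end, and the sole interior region, at 9.68 to 12.26 kb, were present in both WT libraries at 60 h and in no other. The interior H3K4me3 of MEF2D was 0 kb in both CBP libraries at 60 h, against 2.58 kb and 2.30 kb in WT at 60 h (adjusted p = 2.88e-05), and 0 kb in all 4 libraries at 0 h (adjusted p = 1.36e-05 for WT at 60 h against WT at 0 h), an outcome that the filter had fixed here too.

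**Figure D2:**
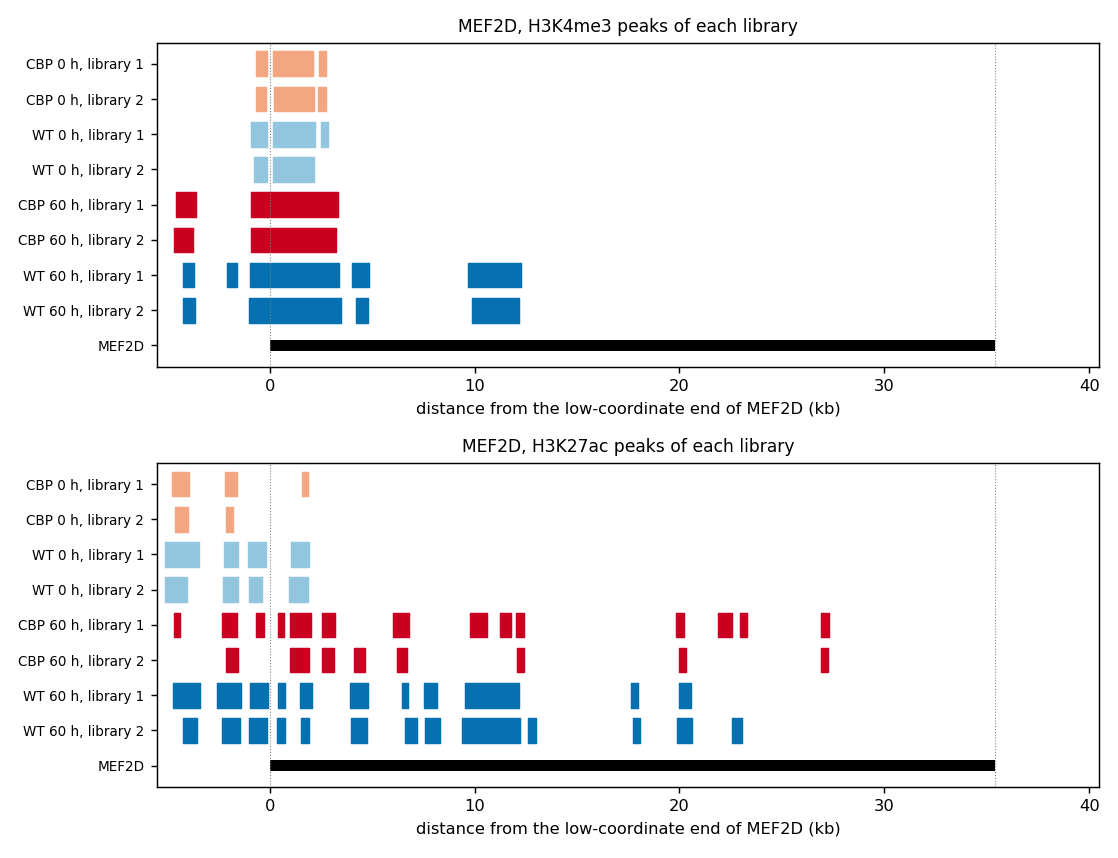
H3K4me3 and H3K27ac peaks of each library over MEF2D, drawn to scale in kb from the end with the lower coordinate, one row per library and CBP above WT at each time. The block at -1.0 to 3.47 kb appears in all H3K4me3 rows, and the block at 9.68 to 12.26 kb appears in the WT rows at 60 h, where H3K27ac is present in CBP rows too.

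H3K27ac at the ends of MEF2D was 1.65 kb and 0.979 kb in CBP at 0 h, against 4.03 kb and 3.26 kb in WT at 0 h. It was 3.44 kb and 2.58 kb in CBP at 60 h, against 5.04 kb and 4.10 kb in WT at 60 h. CBP lay below WT without overlap at both times, and CBP at 60 h overlapped WT at 0 h. H3K27ac fell by 1.21 on the log2 scale in CBP at 0 h (SE 0.240, adjusted p = 0.0174). This call was lost under quantile scaling (log2 -0.53, adjusted p = 0.0627), with equal numbers of peaks (adjusted p = 0.0535) and without CBP 0 h replicate 2 (adjusted p = 0.0691). It was lost as well when WT 0 h replicate 1 was left out (adjusted p = 0.102), and when WT 0 h replicate 2 was (adjusted p = 0.0503). The CBP change at 60 h did not pass (log2 -0.54, SE 0.240, adjusted p = 0.123) and was 0.0453 under quantile scaling. It was called in a fit with a term for replicate number, and replicate 1 was above replicate 2 in every group. The outcome at 60 h thus depends on whether replicate numbers pair the libraries, which is not known. WT at 60 h did not differ from WT at 0 h by the test (log2 0.29, adjusted p = 0.342), and under quantile scaling that change was -0.53 (adjusted p = 0.0467).

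The interior of MEF2D had no H3K27ac in any library at 0 h. At 60 h it had 4.46 kb and 1.51 kb in CBP, against 4.52 kb and 6.07 kb in WT. Both CBP libraries were below both WT libraries, the CBP libraries differed widely from each other, and the CBP change did not pass (log2 -0.86, SE 0.429, adjusted p = 0.184). Without CBP 60 h replicate 1 it was -1.52 (adjusted p = 0.0064), and with peaks of a -log10 q of at least 5 it was -2.16 (adjusted p = 0.00693). WT at 60 h was above WT at 0 h (adjusted p = 0.00137). Regions at 6.01 to 7.17 kb, 9.39 to 12.43 kb and 19.81 to 20.60 kb were in both libraries of CBP and of WT at 60 h. Regions at 7.54 to 8.30 kb and 17.64 to 18.08 kb were in both WT libraries at 60 h only among the 8, and a region at 26.90 to 27.28 kb in both CBP libraries at 60 h only. At the ends, a region at 2.57 to 3.20 kb was likewise in both CBP libraries at 60 h only. Within the region at 9.39 to 12.43 kb, CBP at 60 h had peaks of 866 bp, 544 bp and 420 bp in replicate 1 and 1 peak of 364 bp, at 12.06 to 12.42 kb, in replicate 2, against single peaks of 2624 bp and 2847 bp in WT at 60 h. H3K4me3 was listed there in the WT libraries at 60 h and not in the CBP libraries.

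MEF2A had no H3K4me3 within 5 kb of its span in any of the 8 libraries, and no H3K27ac at its ends. Its interior had 0 kb of H3K27ac in both CBP libraries at 0 h, against 0.497 kb and 0.419 kb in WT at 0 h (adjusted p = 0.0823), at 38.62 to 39.23 kb. It had 0 kb in both CBP libraries at 60 h, against 0.535 kb and 0 kb in WT at 60 h (adjusted p = 0.290), in another place, at 99.42 to 99.95 kb. The groups at 60 h overlapped at 0 kb, and none of these changes passed the test. With stricter peaks or equal numbers of peaks the change at 0 h was called (adjusted p = 5.35e-05 and 8.79e-05). In both settings only the WT 0 h libraries still had bases. The filter had thus fixed that call, and its p values add nothing to the lengths. Without WT 60 h replicate 1, too, only the WT 0 h libraries had bases. Fits without a WT 60 h library had 1 library left in that group, and no p is given for them.

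Because the annotated MEF2A span was nearly bare, the flanks were examined; the place was chosen after its values were seen and is given with no test. The nearest H3K4me3 region present in all 8 libraries lay 53.1 kb outside the low-coordinate end, at chromosome 1, 138340322 to 138345191, and the nearest annotated gene other than MEF2A was the lncRNA LOC106509035, 76.9 kb away. H3K4me3 there covered 3.57 kb and 3.45 kb in CBP at 60 h, against 4.57 kb and 4.70 kb in WT at 60 h, and 1.60 kb and 1.55 kb in CBP at 0 h, against 1.93 kb and 2.86 kb in WT at 0 h. H3K27ac there covered 0.391 kb and 0.415 kb in CBP at 60 h, against 2.29 kb and 2.80 kb in WT at 60 h, and 0 kb in both CBP libraries at 0 h, against 0.889 kb and 0.629 kb in WT at 0 h. CBP lay below WT without overlap for both marks at both times. Whether this region belongs to MEF2A cannot be told from the annotation used. On the other side, the nearest such region was at LYSMD4, 57.5 kb away, with 1.69 kb and 1.73 kb of H3K4me3 in CBP at 60 h, against 1.37 kb and 1.28 kb in WT at 60 h, and 0.834 kb and 0.804 kb in CBP at 0 h, against 1.61 kb and 1.35 kb in WT at 0 h. There CBP lay above WT at 60 h and below WT at 0 h.

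**Figure D3:**
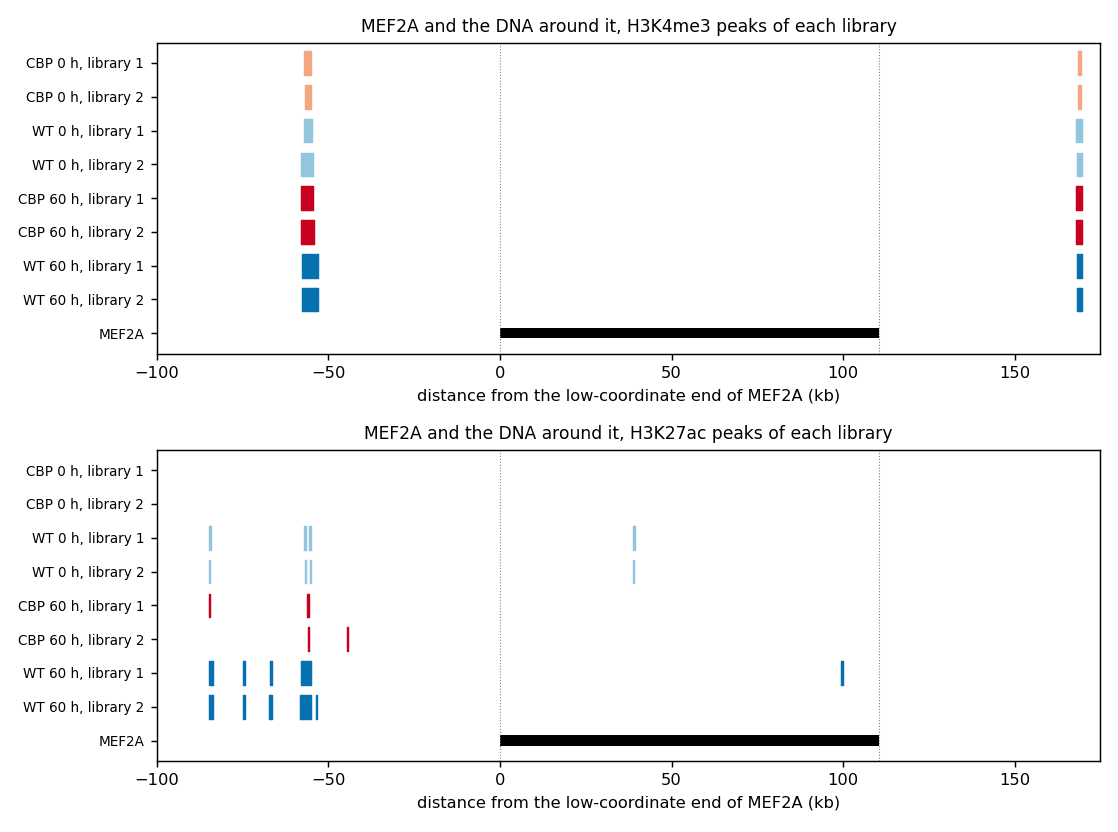
H3K4me3 and H3K27ac peaks of each library over MEF2A and its flanks, drawn to scale in kb from the end with the lower coordinate, one row per library and CBP above WT at each time. The span of the gene is nearly empty, and the region 53.1 kb outside its low-coordinate end carries H3K4me3 in every library.

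Set in order over its whole extended span, H3K4me3 of MEF2C averaged 9.31 ± 0.517 kb in WT at 60 h, 4.86 ± 0.195 kb in CBP at 60 h, 2.54 ± 0.513 kb in WT at 0 h and 1.98 ± 0.00354 kb in CBP at 0 h. For MEF2D the order was the same, with 8.41 ± 0.672 kb in WT at 60 h, 5.15 ± 0.105 kb in CBP at 60 h, 2.90 ± 0.337 kb in WT at 0 h and 2.83 ± 0.0226 kb in CBP at 0 h. The 0 h groups of MEF2D overlapped; those of MEF2C did not, although their difference was close to the SD in WT at 0 h. H3K27ac of MEF2D averaged 9.87 ± 0.431 kb in WT at 60 h, 5.99 ± 2.70 kb in CBP at 60 h, 3.64 ± 0.541 kb in WT at 0 h and 1.31 ± 0.472 kb in CBP at 0 h; no neighbours overlapped. H3K27ac of MEF2C averaged 6.47 ± 1.01 kb in WT at 60 h, 2.23 ± 0.0163 kb in CBP at 60 h, 1.70 ± 0.350 kb in CBP at 0 h and 1.47 ± 0.630 kb in WT at 0 h, and the 0 h groups overlapped. MEF2A stayed at or below 0.458 ± 0.0552 kb of H3K27ac.

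**Figure D4:**
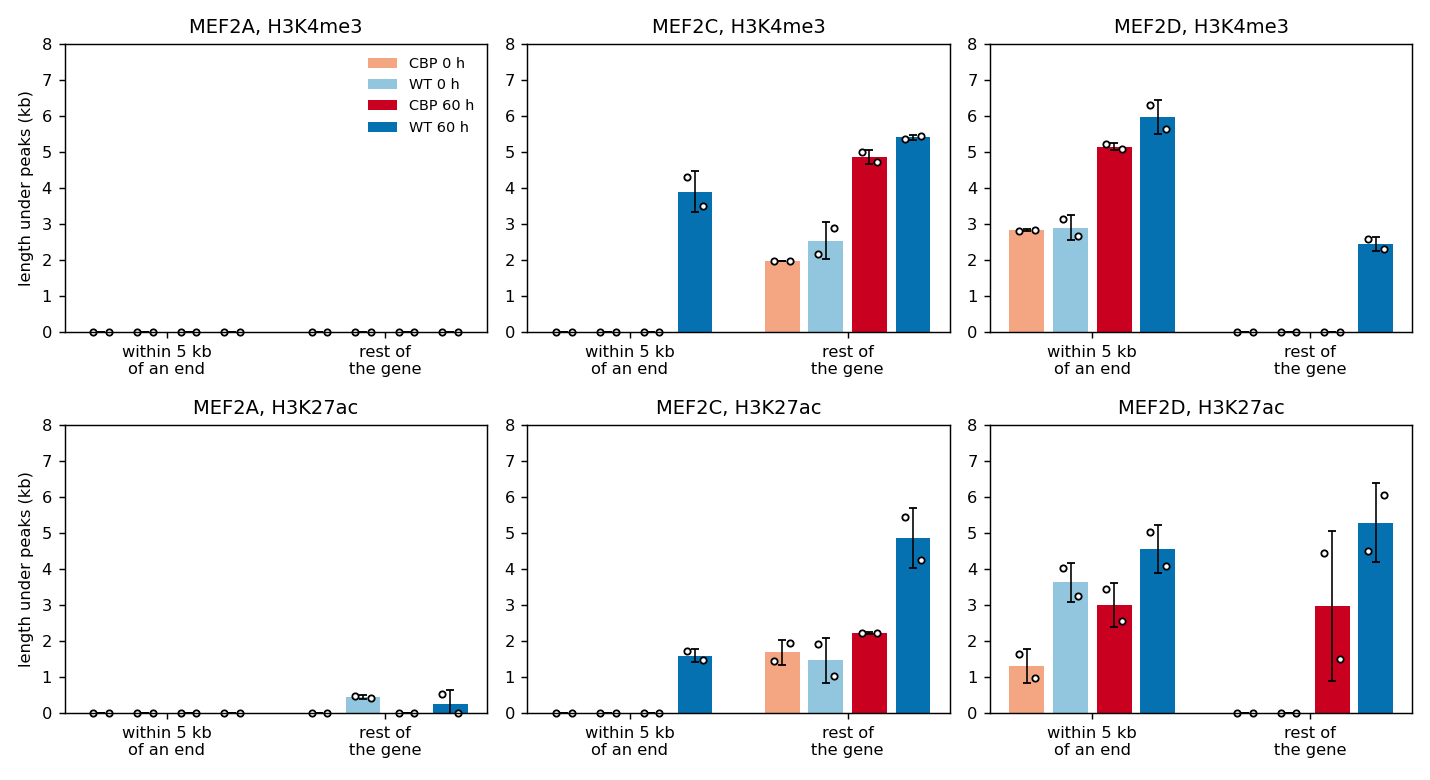
Length under peaks in kb at the ends and in the interior of MEF2A, MEF2C and MEF2D, by mark, with points for libraries, bars for means and error bars for SD over n = 2 libraries, and CBP left of WT at each time. The WT libraries at 60 h have the highest mean wherever a gene carries a mark, except in the interior H3K27ac of MEF2A, where no value exceeds 0.535 kb and the mean is highest in WT at 0 h.

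These calls were read against all genes tested, 12908 at ends and 1901 in interiors for H3K4me3 and 8973 and 3720 for H3K27ac. The ends of MEF2C in both marks and the interior of MEF2D in H3K4me3 entered the tests through the WT 60 h libraries alone and had to differ there, and the interior of MEF2D in H3K27ac entered through 60 h libraries alone, so the counts describe the members and support nothing. For WT at 60 h against WT at 0 h, H3K4me3 was called higher at the ends of 2 of 2 members tested, with 41.5% of all genes, and lower in 0 of 2, with 5.62%; in interiors it was called higher in 2 of 2, with 41.6% of all genes. H3K27ac was called higher at the ends of 1 of 2 members, with 51.1% of all genes, and lower in 0 of 2, with 7.43%; in interiors it was called higher in 2 of 3, with 35.7% of all genes. At the ends the H3K27ac share is near the background.

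For CBP against WT at 60 h, H3K4me3 was called lower at the ends of 1 of 2 members, with 6.49% of all genes, and higher in 0 of 2, with 9.88%; in interiors it was called lower in 1 of 2, with 16.4% of all genes. H3K27ac was called lower at the ends of 1 of 2, with 47.2% of all genes, and higher in 0 of 2, with 2.65%; in interiors it was called lower in 1 of 3, with 33.1%. For CBP against WT at 0 h, H3K4me3 was called lower at the ends of 0 of 2 members, beside 40.0% of all genes, and higher in 0 of 2, beside 1.32%; in interiors it was called lower in 0 of 2, beside 36.5%. H3K27ac at 0 h was called lower at the ends of 1 of 2, beside 28.2%, and higher in 0 of 2, beside 1.40%; in interiors it was called lower in 0 of 3, beside 34.8%. Where a member was not called by limma, an unadjusted p under 0.05 was reached by interior H3K27ac of MEF2A for CBP against WT at 0 h and of MEF2C for the difference between the CBP effects at both times, and by no other.

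The H3K27ac lists covered 10.5 ± 1.74 Mb in CBP at 60 h, against 19.1 ± 1.60 Mb in WT at 60 h, and 5.53 ± 1.08 Mb in CBP at 0 h, against 12.3 ± 0.975 Mb in WT at 0 h. The median change over all genes at their ends was -0.73 at 60 h and -0.35 at 0 h for CBP against WT, and 0.77 for WT at 60 h against WT at 0 h. Under quantile scaling these medians were 0.03, 0.13 and 0.00, and the split of calls at 60 h moved from 238 higher and 4232 lower to 995 higher and 1143 lower. The H3K4me3 lists covered 27.6 Mb and 27.5 Mb in CBP at 60 h, against 27.4 Mb and 26.5 Mb in WT at 60 h, with a median change of 0.04. At 0 h the scaling moved the H3K4me3 split from 170 higher and 5164 lower to 1811 higher and 1698 lower, and in WT over time from 5354 higher and 725 lower to 2287 higher and 3380 lower. The corresponding H3K27ac splits moved from 126 higher and 2532 lower to 760 higher and 1472 lower at 0 h, and from 4588 higher and 667 lower to 1615 higher and 1630 lower in WT over time.

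Whether the CBP effect differed between the times was tested as the effect at 60 h minus that at 0 h. H3K4me3 at the ends was called lower in this difference for 1 of 2 members, MEF2C (adjusted p = 0.000241), beside 3.41% of all genes, and in interiors for 1 of 2, MEF2D (adjusted p = 0.00013), beside 8.94%. H3K27ac at the ends was called for 1 of 2, MEF2C (adjusted p = 0.000342), beside 22.1%, and in interiors for 0 of 3, beside 14.8%. All 3 of these calls are of measures listed in the WT 60 h libraries alone, for which the filter fixed the difference. The ends of MEF2D did not pass in H3K4me3 (log2 -0.16, adjusted p = 0.277) or H3K27ac (log2 0.68, adjusted p = 0.199), and the interior of MEF2C did not pass in H3K27ac (log2 -1.15, adjusted p = 0.0680). With a term for replicate number, the H3K27ac difference at the ends of MEF2D was called.

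Among merged regions, 5 of 10 H3K4me3 regions of the members were present in both WT libraries at 60 h and in neither CBP library at 60 h, beside 4.51% of all regions, and 3 of the 5 were at the high-coordinate end of MEF2C. Of 10 H3K4me3 regions, 7 were present in both WT libraries at 60 h and in neither at 0 h, beside 8.82% of all regions. For H3K27ac, 7 of 32 regions were in both WT and neither CBP library at 60 h, beside 22.7%, and 3 of 32 showed the opposite, beside 4.60%. Of 10 H3K27ac regions at 0 h, 2 were in both WT and neither CBP library, beside 29.7%, and of 27 regions in WT, 14 were gained by 60 h, beside 25.4%. Neighbouring regions of a gene are not independent, and no test was made on them. H3K27ac regions lay on H3K4me3 regions in 7 of 16 cases (43.8%) for MEF2C, 8 of 16 for MEF2D and 0 of 2 for MEF2A, and in 35.3% of 39013 regions genome-wide. By the authors' fold enrichment, the strongest H3K4me3 peak of MEF2C exceeded 41.4 to 69.2% of the peaks of its own list across the 8 libraries, and that of MEF2D 64.3 to 92.2%. For H3K27ac these ranks were 53.3 to 75.5% for MEF2C, 52.2 to 96.4% for MEF2D and 44.5 to 79.3% in the 3 libraries with a peak in MEF2A.

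Genes that act with MEF2 proteins were followed at their ends in 7 lists of 63 genes, of which 62 were found in the gene table. MEF2B, the remaining family member, had no peak in any library. Each list's counts stand beside the shares of all genes at their ends that were given for the members, and these are repeated where a count is close to its share. Among 20 muscle targets of MEF2, 17 were tested for H3K4me3, and 16 rose and 0 fell in WT at 60 h relative to 0 h, with a median log2 change of 1.90, against 0.17 over all genes; under quantile scaling 14 rose and 1 fell. ACTC1, the cardiac actin also made in young muscle fibres, had 0 kb at 0 h (adjusted p = 5.74e-07), and so did TNNI1, the slow troponin I (adjusted p = 4.15e-06), with 3.38 ± 0.0417 kb in WT at 60 h. In CBP at 60 h relative to WT, 13 of the 17 fell and 0 rose, with a median of -0.86 against 0.04 over all genes, and 13 fell and 0 rose under quantile scaling. Of the 17 genes, 5 were listed only in WT at 60 h and had to differ there, so the list is described and not tested. Others, such as ACTC1, TNNI1 and CKM, had 0 kb at 0 h and passed the filter through 60 h libraries alone. They could not fall over time, so their p values there add nothing to their lengths. The count of 16 and the median of 1.90 include such genes.

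XIRP2, an actin-binding repeat protein, had 0 kb of H3K4me3 in CBP at 60 h, against 2.57 ± 0.00283 kb in WT at 60 h (adjusted p = 4.82e-05). LMOD2, which nucleates thin filaments, had 0 kb in CBP, against 1.48 ± 0.139 kb in WT (adjusted p = 0.000133), and HSPB7, a small heat shock protein of muscle, had 0 kb in CBP, against 1.39 ± 0.369 kb in WT (adjusted p = 0.000666). Those 3 genes, like the ends of MEF2C, were listed only in WT at 60 h, whereas ACTC1 had 4.90 ± 0.0481 kb in CBP at 60 h and 7.51 ± 0.175 kb in WT at 60 h (log2 -0.57, adjusted p = 0.000662). TNNI1 had 3.05 ± 0.284 kb in CBP at 60 h and did not pass (log2 -0.13, adjusted p = 0.273). For H3K27ac, 12 of the targets were tested, 4 of them listed only in WT at 60 h. In CBP at 60 h 6 fell and 0 rose, near the 47.2% of all genes called lower. The median was -1.25, against -0.73 over all genes. The 4 genes listed only in WT at 60 h had to be lower in CBP, which bears on the count and the median. In WT at 60 h relative to 0 h, 9 rose and 0 fell (median 1.45, against 0.77). Under quantile scaling 3 fell and 1 rose in CBP at 60 h, and 7 rose and 1 fell in WT at 60 h. At 0 h, 4 of 17 targets fell in H3K4me3 in CBP and 0 rose, a smaller share than the 40.0% of all genes called lower. The list median was 0.0, against -0.18 over all genes, and targets with 0 kb in WT at 0 h could not fall. The 4 included XIRP1 and DES, the intermediate filament desmin. DES had 0.529 ± 0.0686 kb in CBP, against 2.13 ± 0.205 kb in WT (log2 -1.36, adjusted p = 0.000205). In H3K27ac at 0 h, 2 of 12 targets fell and 1 rose in CBP, beside 28.2% and 1.40% of all genes called in those directions. The 1 that rose was PPARGC1A, with 0.781 ± 0.225 kb in CBP, against 0.144 ± 0.204 kb in WT. Under quantile scaling 1 fell and 1 rose.

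**Figure D5:**
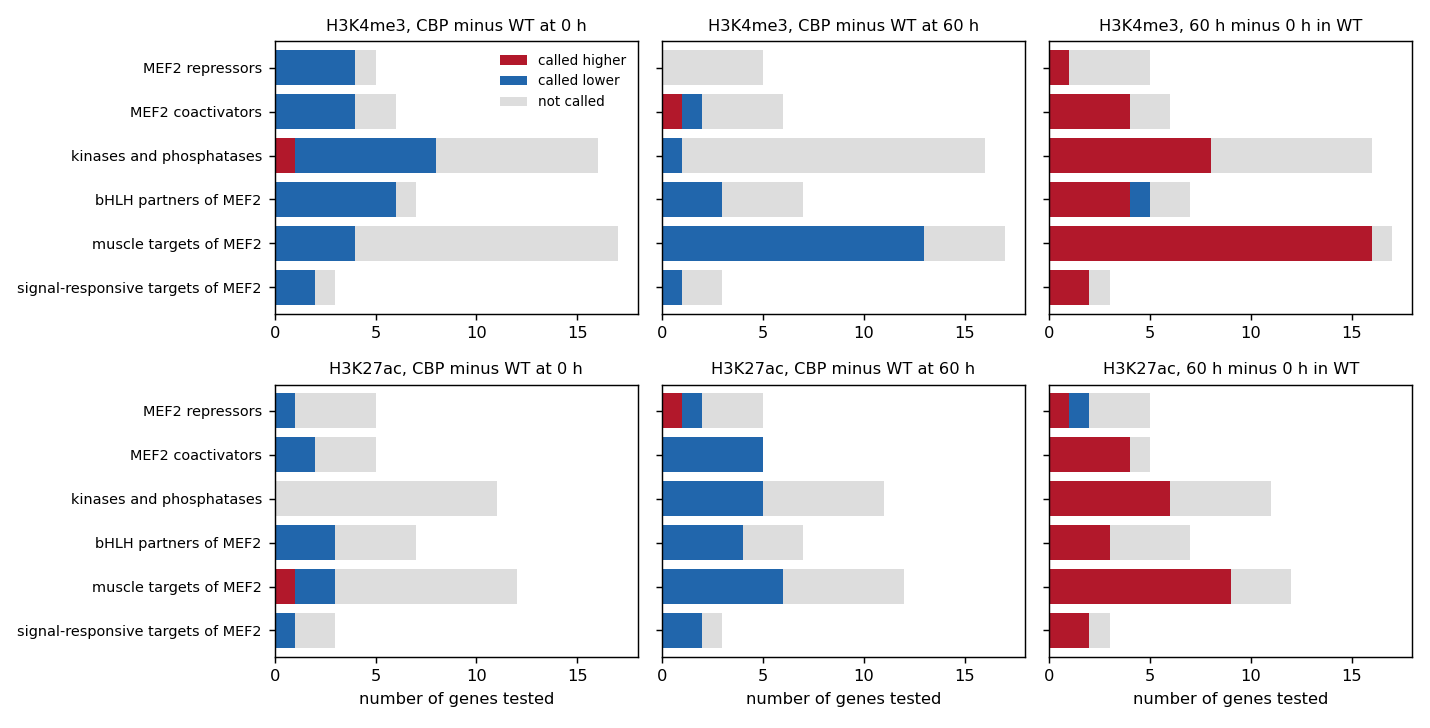
Number of genes tested in each MEF2 list, split into those called higher, called lower and not called by limma at their ends, by mark and comparison. In H3K4me3 the muscle targets have 13 of 17 called lower in CBP than in WT at 60 h, 16 of 17 higher in WT at 60 h than at 0 h, and 4 of 17 lower in CBP than in WT at 0 h. Of all genes, 6.49%, 41.5% and 40.0% were called in those directions. The list labelled MEF2 repressors also holds SIK1, a kinase of class IIa deacetylases.

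The bHLH partners bind DNA beside MEF2 at muscle genes, and all 7 were tested in both marks. At 60 h in CBP, 3 fell in H3K4me3 and 0 rose, under quantile scaling too. MYOG, the myogenin gene, had 2.67 ± 0.0778 kb in CBP at 60 h and 3.98 ± 0.0651 kb in WT at 60 h (log2 -0.50, adjusted p = 0.0026), MYF6 had 0 kb in CBP and 0.872 ± 0.0361 kb in WT (adjusted p = 0.00319), and MYF5 had 2.56 ± 0.0424 kb in CBP and 3.38 ± 0.0856 kb in WT (log2 -0.34, adjusted p = 0.00464). MYF5 and MYF6 are neighbouring genes. MYOG thus carried H3K4me3 in CBP at 60 h, where the ends of MEF2C had none. At 0 h, 6 of 7 partners fell in CBP in H3K4me3 and 0 rose, and 4 fell and 1 rose under quantile scaling; 40.0% of all genes were called lower there. MYOD1, which commits cells to muscle, had 0 kb in CBP at 0 h and 0.996 ± 0.196 kb in WT at 0 h (adjusted p = 0.0002). TCF12, an E protein that pairs with MyoD factors, had 1.56 ± 0.127 kb in CBP at 0 h and 2.63 ± 0.142 kb in WT at 0 h (log2 -0.61, adjusted p = 0.000785). In WT, 4 partners rose and 1 fell in H3K4me3 at 60 h relative to 0 h, beside 41.5% and 5.62% of all genes called in those directions. In H3K27ac, 4 fell and 0 rose in CBP at 60 h, 3 fell and 0 rose in CBP at 0 h, and 3 rose and 0 fell in WT at 60 h, beside 47.2%, 28.2% and 51.1% of all genes called in those directions. The first of these was 2 fell and 0 rose under quantile scaling. In H3K27ac MYOD1 was listed only in WT at 60 h and had to be lower in CBP and higher over time. MYOG had 0 kb of both marks at 0 h and could not fall over time.

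The coactivators that MEF2 proteins recruit include the targets of the compound. All 5 tested in H3K27ac fell in CBP at 60 h and 0 rose (median -1.83, against -0.73 over all genes, of which 47.2% were called lower); 3 fell and 0 rose under quantile scaling. Of the 5, VGLL2 and KAT2B were listed only in WT at 60 h and had to be lower in CBP, so the count and the median support nothing. EP300, the gene of p300, had 0 kb in CBP at 60 h, against 1.69 ± 0.0856 kb in WT at 60 h (adjusted p = 6.39e-05). CARM1, an arginine methyltransferase that aids MEF2, had 0.316 ± 0.0290 kb in CBP, against 3.63 ± 0.646 kb in WT (log2 -2.33, adjusted p = 9.09e-05). VGLL2, a TEAD cofactor that also binds MEF2 in mouse, had 0 kb in CBP, against 0.718 ± 0.0615 kb in WT. In H3K4me3, of 6 tested, 1 rose and 1 fell in CBP at 60 h: EP300 had 4.96 ± 0.0431 kb in CBP and 4.30 ± 0.141 kb in WT (log2 0.18, adjusted p = 0.0382), and VGLL2 had 2.28 ± 0.0311 kb in CBP and 4.47 ± 0.131 kb in WT (log2 -0.84, adjusted p = 0.002). EP300 thus had a longer H3K4me3 and no listed H3K27ac at its ends in CBP at 60 h; under quantile scaling no coactivator rose. At 0 h in CBP, 4 of 6 fell in H3K4me3 and 2 of 5 in H3K27ac, with 0 higher in either, beside 40.0% and 28.2% of all genes called lower. Under quantile scaling 1 fell and 0 rose in each mark. In WT at 60 h relative to 0 h 4 rose in each mark and 0 fell, beside 41.5% and 51.1% of all genes called higher. In H3K27ac the 4 included VGLL2, KAT2B and CARM1, which had 0 kb at 0 h. Those genes passed the filter through 60 h libraries alone and could not fall, so that count supports nothing.

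Of the list of class IIa deacetylases and other repressors, 5 of 6 genes were tested. The list also holds SIK1, a kinase that phosphorylates class IIa deacetylases and is not itself a repressor of MEF2, so its counts are not of repressors alone. In H3K4me3, 4 fell and 0 rose in CBP at 0 h, beside 40.0% of all genes called lower, and 1 fell under quantile scaling. HDAC4, a class IIa deacetylase that binds MEF2, had 0.773 ± 0.0311 kb in CBP at 0 h and 2.28 ± 0.221 kb in WT at 0 h (log2 -1.13, adjusted p = 0.00044). The 4 genes included the kinase SIK1, and HDAC5 and HDAC7. At 60 h 0 rose and 0 fell in CBP in H3K4me3 by limma (1 had an unadjusted p under 0.05), where HDAC4 had 2.53 ± 0.313 kb in CBP and 2.30 ± 0.0163 kb in WT. In H3K27ac at 60 h HDAC4 fell, with 0 kb in CBP, against 0.638 ± 0.0297 kb in WT (adjusted p = 6.39e-05). HDAC4 was listed only in WT at 60 h and had to differ. HDAC7 was called higher, with 0.897 ± 0.837 kb in CBP and 0 kb in WT (adjusted p = 0.0450). HDAC7 was listed only in CBP at 60 h and had to be higher there, so its p adds nothing to its lengths. In WT at 60 h relative to 0 h, 1 rose and 0 fell in H3K4me3. In H3K27ac 1 rose, HDAC4, and 1 fell, the kinase SIK1.

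Among 18 kinases and phosphatases that act on MEF2 or on the deacetylases, 16 were tested in H3K4me3 and 11 in H3K27ac. In WT at 60 h relative to 0 h, 8 rose and 0 fell in H3K4me3 and 6 rose and 0 fell in H3K27ac, shares near the 41.5% and 51.1% of all genes called higher. MAPK7 (ERK5), a kinase that phosphorylates MEF2C, had 7.61 ± 0.453 kb of H3K4me3 in WT at 60 h and 3.0 ± 0.556 kb in WT at 0 h (log2 1.22, adjusted p = 0.00107). It was the 1 gene that fell in H3K4me3 in CBP at 60 h, with 4.87 ± 0.786 kb in CBP and 7.61 ± 0.453 kb in WT (log2 -0.60, adjusted p = 0.0375), and 0 rose. In H3K27ac, 5 of 11 fell and 0 rose in CBP at 60 h, near the 47.2% of all genes called lower, and CAMK2G, a subunit of calcium/calmodulin-dependent kinase II, had 1.18 ± 0.314 kb in CBP and 5.90 ± 0.716 kb in WT (log2 -1.94, adjusted p = 0.00474). Under quantile scaling 2 fell and 0 rose. At 0 h in CBP, 7 of 16 fell and 1 rose in H3K4me3, near the 40.0% of all genes called lower, against 2 and 4 under quantile scaling, and 0 of 11 moved in H3K27ac by limma (1 had an unadjusted p under 0.05). Of 5 signal-responsive targets 3 were tested. In CBP at 60 h 1 fell in H3K4me3 and 2 in H3K27ac, with 0 higher, beside 6.49% and 47.2% of all genes called lower. In H3K27ac 1 of these, KLF4, was listed only in WT at 60 h and had to be lower in CBP. JUN, an immediate early factor, had 0.209 ± 0.296 kb of H3K27ac in CBP at 60 h and 2.89 ± 0.0382 kb in WT at 60 h (log2 -2.32, adjusted p = 0.00219).

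The genes whose pattern at their ends was most like that of MEF2C were found over the 16 libraries of H3K4me3 and H3K27ac among 8537 genes, by the root mean square difference of log2 values centred within each mark. They were EEF1A2, the elongation factor of mature muscle (0.224), MYL1, a myosin light chain (0.235), GNAS, the stimulatory G protein subunit (0.287), TRDN, triadin of the calcium release unit (0.329), and SYT8, a synaptotagmin (0.332). All 5 had 0 kb of H3K4me3 in CBP at 60 h and at 0 h in both groups, with WT at 60 h between 1.75 kb for SYT8 and 5.04 kb for EEF1A2. They were chosen for this likeness, so it is a description. The genes most like MEF2D were RAPH1, an actin regulator, and LOC110256919, with the same values and 0.167 each, followed by CCDC88A (0.177), PELI3 (0.180) and SMAD5, a BMP signal transducer (0.195). MEF2A had no peak at its ends and was not compared.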

How the data were processed

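CUT&Tag peak lists of 24 libraries were analysed, with broad peaks for H3K27me3 and narrow peaks for the other marks; 8 IgG samples were not analysed here. Per the submitters' processing notes, Trimmomatic (version not given), MACS2 2.1.0 and Sscrofa11.1 were used; no source used here gives the aligner, the control library or the read depth, and the precision that depth gives cannot be stated. The deposited ratio column holds the fold enrichment of MACS2, used to rank peaks within a list. The deposited -log10 p ranked peaks for lists of equal size, and the deposited -log10 q gave a stricter filter. The deposited score and the offset of the summit in bp, another value made by the authors, were not used for results.

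Lengths were computed in Python 3.11.15 with pandas 2.3.3 and numpy 2.4.6, and plots drawn in matplotlib 3.10.9. Overlapping peaks of a list were merged, and bases within 5 kb of either gene end (ends) and in the rest of the gene (interior) were counted. Windows at the start had been planned, but the gene table gives no strand, so both ends were used, and the planned sequence comparisons were not made. Neighbouring genes can share windows. limma 3.58.1 in R 4.3.3 (lmFit, eBayes with trend and robust) was fitted per mark and part on log2(bp + 500) for genes that reached 200 bp in 2 or more of 8 libraries, with 4 residual degrees of freedom and Benjamini-Hochberg adjustment over all genes tested; the fit was tested on simulated data. Contrasts were CBP minus WT at 0 h and at 60 h, 60 h minus 0 h in WT, and the difference of the CBP effects. Regions were peaks of the 8 libraries of a mark merged at an overlap of 1 bp. Alternatives were other added constants, filters, windows, scaling, equal numbers of peaks, a replicate block and each library left out. Of each list up to 4 genes with the smallest adjusted p in a described contrast could be named, with the 5 genes most like each member; a few others are named where a count or contrast turns on them. The members, lists and rules were chosen with earlier results of these data known.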

Additional observations from a re-analysis of the deposited data

Results flagged for a closer look

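For 3 measures of the MEF2 genes the difference between CBP and WT was itself different at 60 h and at 0 h by limma's test of that difference. At the ends of MEF2C the H3K4me3 difference was -3.13 (log2; adjusted p = 0.000241): CBP had 0 kb in both libraries at both times, and WT had 4.32 kb and 3.49 kb at 60 h and 0 kb in both at 0 h. In the interior of MEF2D the H3K4me3 difference was -2.56 (adjusted p = 0.00013): CBP had 0 kb in both libraries at both times, and WT had 2.58 kb and 2.30 kb at 60 h and 0 kb in both at 0 h. At the ends of MEF2C the H3K27ac difference was -2.07 (adjusted p = 0.000342): CBP had 0 kb in both libraries at both times, and WT had 1.73 kb and 1.48 kb at 60 h and 0 kb in both at 0 h. The sizes depend on the added 500 bp, since 3 of the 4 groups had no listed base. All 3 measures passed the filter on low values through the WT 60 h libraries alone, so that the filter had fixed the difference and the p values add nothing to the lengths.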

How the results depend on the processing

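Counts of members called, and of member regions gained or lost, were recomputed 324 times under the alternatives. In 252 of these they stayed within 1.5 times of the reported ones or were equal, and a count of 0 that stayed 0 was scored as equal. The others follow, and their causes were not tested beyond what each alternative changes. Without either WT 60 h library the ends of MEF2C and the interior of MEF2D were in 1 remaining library and left the fit. A fit with no filter on low values, chosen after seeing the data, kept them with either library left out. For CBP against WT at 60 h the sizes were -3.00 and -3.27 (log2) for H3K4me3 of MEF2C. They were -2.49 and -2.62 for that of MEF2D and -1.99 and -2.16 for H3K27ac of MEF2C. The lone library has no spread of its own and was assumed to vary like the others. All other groups were at 0 kb, and the sizes follow from the 500 bp added, so these fits support nothing further.

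H3K27ac, ends: the 1 member called became 0 with equal numbers of peaks in all 4 contrasts; over time it became 2 under quantile scaling, and at 0 h 0 under quantile scaling. With the replicate block it became 2 at 60 h and 2 for the difference of CBP effects, MEF2D being the added member (adjusted p = 0.0125 at 60 h); its replicate 1 was above replicate 2 in all 4 groups. With a library left out, the ranges were 0 to 1 in all 4 contrasts. H3K27ac, interiors: the 0 called at 0 h became 1 with stricter peaks, equal numbers and quantile scaling (libraries left out, 0 to 1); the 1 at 60 h became 0 with 100 bp added and under quantile scaling (0 to 1); the 0 for the difference became 2 with stricter peaks and equal numbers and 1 under quantile scaling (0 to 1). H3K4me3, ends: the difference of CBP effects became 2 under quantile scaling; libraries left out gave 1 to 2 over time, 0 to 1 at 60 h and 0 to 1 for the difference. H3K4me3, interiors: the 0 at 0 h became 1 with stricter peaks and quantile scaling (0 to 1), and the 1 at 60 h became 2 with windows of 2.5 kb (0 to 1); libraries left out gave 1 to 2 over time and 0 to 2 for the difference.

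Regions: with stricter peaks, H3K27ac gave 5 gained over time, 0 gained and 4 lost in CBP at 60 h and 5 lost at 0 h, and H3K4me3 gave 4 gained over time and 1 gained in CBP at 60 h. Equal numbers gave 1, 1 and 1 for H3K27ac gained over time, gained in CBP at 60 h and lost in CBP at 60 h, 1 gained at 0 h, 2 lost over time, and 4 for H3K4me3 gained over time. With 50% of a region to be covered, H3K27ac gave 1 gained and 4 lost at 0 h.

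Changes of sign were these, all log2. Quantile scaling gave 0.0568 for interior H3K4me3 of MEF2C at 0 h and -0.0918 for its difference of CBP effects, -0.53 for H3K27ac at the ends of MEF2D over time, 0.0453 for it at 60 h, and 0.20 for its H3K4me3 at 0 h. Stricter peaks gave -0.90 for interior H3K27ac of MEF2C at 0 h, and 0.12 at 60 h and 0.26 for the difference in H3K4me3 at the ends of MEF2D, where equal numbers gave 0.0489 and 0.16, and -0.50 for its H3K27ac over time. Windows of 2.5 kb gave -0.13 for the difference in interior H3K4me3 of MEF2C. Leaving out a library gave -0.94 to 0.11 for interior H3K27ac of MEF2A over time and -0.11 to 0.94 for its difference (turned without WT 60 h replicate 2), -0.15 to 0.52 for interior H3K27ac of MEF2C at 0 h and -0.0315 to 0.31 for its H3K4me3 difference (without WT 0 h replicate 2), and -0.13 to 0.0728 for H3K4me3 at the ends of MEF2D at 0 h (without WT 0 h replicate 1).

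Deviations of same-numbered libraries correlated over genes at -0.0499 to 0.0651 in H3K4me3 and H3K27ac and at -0.141 to 0.222 in H3K27me3. A correlation over genes does not register a shift common to a whole library, so it cannot decide whether replicate numbers pair the libraries. In H3K27ac the replicate 1 list held more peaks than the replicate 2 list in every group. In H3K4me3 and H3K27me3 the order varied between groups. Depth is unknown, so a base not listed is not shown to lack a mark, and 2 libraries a group limit every comparison.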

Other observations

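H3K27me3 had no peak within 5 kb of any MEF2 gene, but it lay in the flanks of a pair of them. The nearest peak was 12.2 kb outside the low-coordinate end of MEF2C and 16.6 kb outside the high-coordinate end of MEF2D, and 565.5 kb from MEF2A. Within 100 kb of MEF2C on that side, the lists held 29.0 kb and 33.8 kb in CBP at 0 h, against 4.85 kb and 14.0 kb in WT at 0 h, and 4.64 kb and 5.09 kb in CBP at 60 h, against 7.89 kb and 6.04 kb in WT at 60 h. CBP libraries were above WT at 0 h and below WT at 60 h, with no overlap at either time. Within 100 kb of MEF2D on the high side, the lists held 58.5 kb and 51.8 kb in CBP at 0 h, against 0.973 kb and 5.49 kb in WT at 0 h, and 13.5 kb and 10.6 kb in CBP at 60 h, against 9.77 kb and 5.21 kb in WT at 60 h. CBP lay above WT at both times there. MIR9-2 lies 46.0 kb from MEF2C and MIR9-1 lies 43.4 kb from MEF2D on those same sides. Both are copies of the gene of miR-9, a neural microRNA. That flank of MEF2D also holds the lncRNAs LOC102167529 and LOC106510131 and the protein-coding gene RHBG. Whether the H3K27me3 peaks overlap any of these genes was not examined.

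The places were chosen after their values were seen, so no test is given. The H3K27me3 lists as a whole covered 29.9 ± 6.75 Mb in CBP at 0 h, against 2.11 ± 1.42 Mb in WT at 0 h, and 9.89 ± 0.667 Mb in CBP at 60 h, against 5.96 ± 1.83 Mb in WT at 60 h (SD, n = 2), and their part in the flank values was not tested.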
